A study of Mus musculus with 16 samples.

Results

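Microglia of the retina and of the brain were compared as 1 class with macrophages of the cornea and Ly6C+ monocytes of the bone marrow, to describe the genes that set both microglia apart from both other mononuclear phagocytes. The data were read counts per gene from 16 bulk RNA-seq libraries of sorted mouse cells, 4 per population. A gene was called shared when the mean of the microglial populations differed from the mean of the other populations (edgeR's quasi-likelihood test, Benjamini-Hochberg adjusted p under 0.05 over 15754 tested genes) and the fitted change had the same direction in all 4 cross pairs, each microglial population against each other population. Of the 15754 tested genes, 4402 (27.9%) were shared and higher in both microglia and 3747 (23.8%) were shared and lower. A further 2799 genes passed the test on the means but ran in both directions over the 4 pairs and were not kept. A gene was called strictly shared when each of the 4 pairs passed its own test at an adjusted p under 0.05 and changed at least 2-fold, which 1493 genes (9.48%) did in the higher and 1106 genes (7.02%) in the lower direction.

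The mice were C57BL/6 animals of 8 to 10 weeks. Retinal microglia and brain microglia were sorted on CD45 and CD11b. For cornea macrophages the gate added CD64 and F4/80, and for monocytes of the bone marrow it added CD115 and Ly6C. Each retinal and each cornea sample pooled 10 mice, and no pool size is stated for brain or marrow. Retinas were dissociated mechanically in cold buffer, whereas corneas were digested with collagenase D at 37 °C. No handling step for brain or marrow is described. For the 8 libraries of brain and marrow, the free-text description reads retinal microglia while title and source give brain or marrow, and the grouping follows title and source. The text on RNA extraction refers to ventral pons tissue of CX3CR1 reporter mice and to a stranded kit, which leaves the kit and strand of these libraries uncertain. Retina 1, retina 3 and cornea 1 have titles that lack a letter b and share their title number with another library of the same population, so some of the 4 may come from 1 sample. P-values measure the spread between these libraries, which may be technical. Treatment, strain and age were the same for all groups, and no group was an untreated control of another.

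Microglia are the resident macrophages of the brain, spinal cord and retina. They arise early in development, renew themselves in place and rely on signalling through the CSF1 receptor and on TGF-beta from their surroundings, and the zinc finger factor SALL1 helps to hold their identity in mice. Cornea macrophages lie in the transparent stroma at the front of the eye, where they take part in defence and wound repair. Ly6C+ monocytes are made in the bone marrow, leave it with the help of the chemokine receptor CCR2 and can enter tissues and become macrophages there.

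The libraries carried most of the defining markers of their labels. All 4 sorted populations held Csf1r, Itgam and Ptprc, and total counts ranged from 8677418 to 21756558 per library. The level of a gene is given below as CPM, counts scaled to a common library total with edgeR's TMM factors, and these levels compare libraries for 1 gene, not genes with each other. The microglial markers P2ry12, Tmem119, Sall1, Siglech and Gpr34 were higher in each microglial library than in any cornea or marrow library. Ly6c2, the gene behind the monocyte gate, averaged 0.232 and 0.285 CPM in retinal and brain microglia, against 0.182 CPM in cornea macrophages and 2464 CPM in monocytes. It shares much of its sequence with Ly6c1. Of the markers taken for cornea macrophages, Cd74, Mrc1 and Adgre1 were highest in the cornea. Fcgr1, which encodes the CD64 of the cornea gate, went the other way and was lowest there. In bulk RNA, fewer cells of a type and less RNA per cell cannot be told apart.

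The 250 bases before the start of 7 genes are shown, chosen among the genes described below. Sall1, Slc2a5 and P2ry12 stand for the microglial side, Met for the other side, and Ifi205, Oas3 and Ifitm2 for the interferon response genes shared by cornea macrophages and monocytes. Sequences are those of RefSeq on build GRCm38.p6, 5′ to 3′ on the strand of the gene, with matches to the letters searched in capitals. Gene starts follow RefSeq and can differ from those of other annotations.
Sall1 (chr8:89044163-89044412, minus strand): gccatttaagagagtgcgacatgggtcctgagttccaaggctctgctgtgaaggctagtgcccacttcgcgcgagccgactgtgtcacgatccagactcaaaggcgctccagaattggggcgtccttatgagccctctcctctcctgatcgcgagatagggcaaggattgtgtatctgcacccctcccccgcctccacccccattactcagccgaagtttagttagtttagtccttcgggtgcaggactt
Slc2a5 (chr4:150119094-150119343, plus strand): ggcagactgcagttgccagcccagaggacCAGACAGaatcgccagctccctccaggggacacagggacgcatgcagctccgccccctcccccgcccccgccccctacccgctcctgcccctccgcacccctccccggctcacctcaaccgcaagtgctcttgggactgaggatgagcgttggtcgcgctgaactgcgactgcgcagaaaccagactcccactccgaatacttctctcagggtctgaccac
P2ry12 (chr3:59262986-59263235, minus strand): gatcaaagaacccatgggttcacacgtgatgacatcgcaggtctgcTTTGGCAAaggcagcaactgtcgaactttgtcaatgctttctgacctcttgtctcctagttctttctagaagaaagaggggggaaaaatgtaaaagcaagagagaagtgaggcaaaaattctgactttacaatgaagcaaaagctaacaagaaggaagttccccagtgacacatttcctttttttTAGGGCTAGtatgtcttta
Met (chr6:17463707-17463956, plus strand): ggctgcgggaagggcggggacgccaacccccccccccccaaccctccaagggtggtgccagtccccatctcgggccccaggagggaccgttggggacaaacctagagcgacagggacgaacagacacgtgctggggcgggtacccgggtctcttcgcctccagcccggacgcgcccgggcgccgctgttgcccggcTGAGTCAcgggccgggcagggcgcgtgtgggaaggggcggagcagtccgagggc
Ifi205 (chr1:174031756-174032005, minus strand): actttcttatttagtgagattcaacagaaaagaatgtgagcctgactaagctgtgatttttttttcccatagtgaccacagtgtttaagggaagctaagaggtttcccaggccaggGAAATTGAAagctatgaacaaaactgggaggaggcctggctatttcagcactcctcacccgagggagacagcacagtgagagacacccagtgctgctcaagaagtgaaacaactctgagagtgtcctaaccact
Oas3 (chr5:120777660-120777909, minus strand): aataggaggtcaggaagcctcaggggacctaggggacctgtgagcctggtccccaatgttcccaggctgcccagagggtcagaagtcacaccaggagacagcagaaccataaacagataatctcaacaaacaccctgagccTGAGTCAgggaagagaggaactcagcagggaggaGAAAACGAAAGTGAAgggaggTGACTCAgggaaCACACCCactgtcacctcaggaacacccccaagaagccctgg
Ifitm2 (chr7:140955962-140956211, minus strand): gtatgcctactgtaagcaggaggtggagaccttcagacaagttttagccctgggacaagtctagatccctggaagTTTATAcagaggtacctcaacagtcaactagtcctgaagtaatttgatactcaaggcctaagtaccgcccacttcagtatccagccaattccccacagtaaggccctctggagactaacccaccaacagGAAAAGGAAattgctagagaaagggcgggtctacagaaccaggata

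Letters for 10 factors or elements were searched on both strands. Among the 9631 tested genes with a RefSeq promoter, the IRF letters GAAANNGAA were found in 6.55%, the AP-1 letters TGANTCA in 4.44%, the MEF2 letters CTANNNNTA in 13% and the SMAD letters CAGACAG in 5.03%. The C/EBP letters TTGCNNAA were found in 7.67%, the KLF letters GGGTGTG in 7.16%, the TATA letters TATAAA in 6.71%, the PU.1 letters GAGGAAG in 11.1%, the MAF letters TGCTGAC in 3.06% and the NF-kappaB letters GGGANTTTC in 0.893%. The AP-1 letters read the same on both strands. The Ifi205, Oas3 and Ifitm2 windows each held the IRF letters, Oas3 at 2 overlapping places together with the AP-1 letters at 2 places and the KLF letters once. The Ifitm2 window also held the TATA letters. The Met window held the AP-1 letters, the P2ry12 window the MEF2 and C/EBP letters and the Slc2a5 window the SMAD letters. None of these letters was found in the Sall1 window. Windows of Hspb3, Ahnak and Mefv were searched too and are not shown. Mefv, lower in microglia, held the MEF2 letters, Hspb3 the MEF2, SMAD and TATA letters, and Ahnak none. A match is a description of the letters, and no match says only that these letters are not in this window. A comparison of letters between strictly shared genes and other genes was void, because fewer than 80% of each set had a RefSeq promoter.

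Strictly shared genes made up a large part of each library. The genes higher in microglia took 24.1% to 27.5% of the counts of retinal microglia and 28.1% to 29.5% of those of brain microglia, against 2.68% to 2.83% in cornea macrophages and 2.72% to 2.86% in monocytes. The genes lower in microglia took 3.35% to 3.68% in retinal microglia and 2.67% to 2.83% in brain microglia, against 19.4% to 20.4% in cornea macrophages and 22.2% to 22.9% in monocytes. These shares describe genes chosen for their difference and are not a test. The 8 microglial libraries all lay above the 8 other libraries for 1942 tested genes (12.3%) and all below for 1637 tested genes (10.4%).

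**Figure D1:**
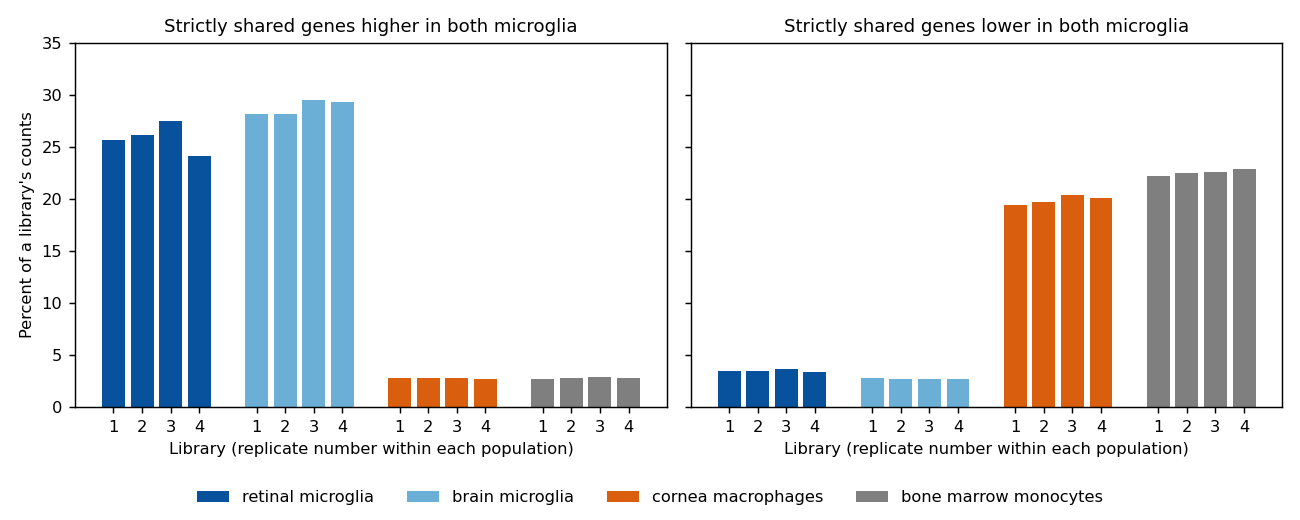
Percent of each library's counts (y axis) that fell on strictly shared genes higher in both microglia (left) and lower in both microglia (right), for each of the 4 libraries of each population (x axis). Microglial bars lie between 24.1% and 29.5% on the left and between 2.67% and 3.68% on the right.

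Each of the 2 sequencing lanes named in the column headers held microglia, cornea macrophages and monocytes, but retinal and brain microglia lay on different lanes. Differences between retinal and brain microglia could therefore not be compared within 1 lane. Lane 2 held the 4 retinal, 3 cornea and 1 marrow library, and lane 3 held the 4 brain, 1 cornea and 3 marrow libraries. A fit on 1 lane therefore applied the shared and strict rules to 2 cross pairs, not 4. It also rested on 1 library for marrow or for cornea. The filter left 19132 genes on lane 2 and 16207 on lane 3, so the lane counts do not have the base of the main counts. On lane 2 alone, where retinal microglia were the sole microglia, 4050 genes were shared higher and 3263 lower. On lane 3 alone, where brain microglia were the sole microglia, 4593 genes were shared higher and 3534 lower. Of the strictly shared genes, 908 of 1493 higher (60.8%) and 839 of 1106 lower (75.9%) also met the strict rule within each lane. Leaving the TMM factors out and scaling by total counts moved the median log2 fold change of all tested genes to 0.48, against 0.08 with TMM. The share of higher genes among those passing the test on the means and keeping 1 direction then rose to 70.5%, against 54.0% with TMM, and among strictly shared genes to 72.5%, against 57.4%. TMM factors were 1.07 to 1.25 in the microglial libraries, against 0.66 to 0.71 in cornea and 1.07 to 1.13 in marrow libraries.

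Most strictly shared genes higher in microglia were at like levels in the retina and the brain, which differed in 10.5% of all tested genes. The share of all tested genes within 2-fold was not worked out, so like levels are not shown to be particular to these genes. Of the 1493 strictly shared higher genes, 1311 (87.8%) differed less than 2-fold between retinal and brain microglia, with a median absolute log2 difference of 0.35. In the same genes the cornea macrophages and monocytes, both low, differed by a median absolute log2 value of 1.15. The retina and brain differed at an adjusted p under 0.05 in 27 of these genes with more in the retina and in 75 with more in the brain, against 10.5% of all tested genes in either direction. In the 1106 strictly shared lower genes the high side is cornea macrophages and monocytes. They differed at an adjusted p under 0.05 in 357 with more in the cornea and in 305 with more in monocytes. These 2 counts together were a share near the 63.3% of all tested genes in either direction. Unevenness on this side was thus not particular to the lower genes. The median absolute log2 difference between cornea macrophages and monocytes was 1.01 in these genes, and 550 (49.7%) differed less than 2-fold. Neither within-side difference passed its test in 720 of the higher and 383 of the lower genes, which does not show equal levels.

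**Figure D2:**
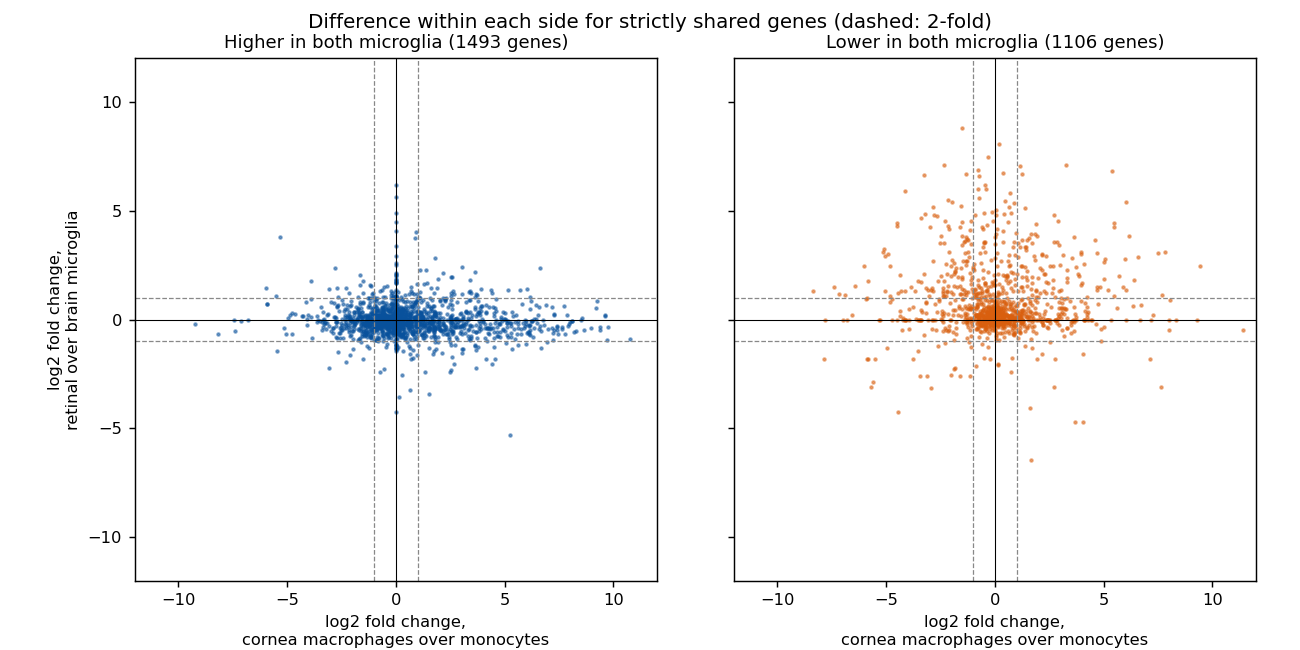
Each point is a strictly shared gene, higher (left) or lower (right) in both microglia. The y axis is the log2 fold change of retinal over brain microglia and the x axis that of cornea macrophages over monocytes, and points at exactly 0 had no or almost no counts in both populations of that axis. Of the higher genes, 1311 of 1493 lie within 2-fold on the y axis. Of the lower genes, 550 of 1106 lie within 2-fold on the x axis.

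Sall1 led the genes higher in both microglia. SALL1, a zinc finger repressor on which microglial identity depends in mice, (gene at chr8:89027235-89044162, minus strand on GRCm38) had 672, 578, 353 and 557 CPM in retinal microglia, and 659, 608, 746 and 738 CPM in brain microglia. Sall1 had 0, 0, 0 and 0.399 CPM in cornea macrophages, and 0, 0.0997, 0 and 0 CPM in monocytes. The rule that named this gene required that no microglial library overlap a cornea or marrow library. The weakest of the 4 pairs, retinal microglia against cornea macrophages, was 4123-fold higher. Its relative Sall3 lay at 142 to 204 CPM (median 164) in the 8 microglial libraries, against 0 to 0.227 CPM (median 0) in the 8 cornea and marrow libraries. Slc2a5 encodes the fructose transporter GLUT5 and lay at 459.8 to 1119 CPM (median 790.1) in the 8 microglial libraries, against 0 to 0.907 CPM (median 0.0226) in the 8 cornea and marrow libraries, and the weakest of the 4 pairs, retinal microglia against cornea macrophages, was 2840.4-fold higher. Adgrg1, an adhesion G protein-coupled receptor, lay at 624 to 1301 CPM (median 862) in the 8 microglial libraries, against 0 to 2.13 CPM (median 0.92) in the 8 cornea and marrow libraries (log2 fold change 9.77, SE 0.28, adjusted p = 1.2e-14).

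The next genes had few or no counts in at least 1 population of the other side. Adamts16, a secreted metalloprotease, lay at 22.3 to 39.1 CPM (median 29.5) in the 8 microglial libraries, against 0 CPM in each of the 8 cornea and marrow libraries. Against a floor of 3 counts over a population, the weakest of the 4 pairs, retinal microglia against cornea macrophages, was at least 469.8-fold higher. Hspb3, a small heat shock protein, lay at 17.3 to 31.3 CPM (median 23.4) in the 8 microglial libraries, against 0 CPM in each of the 8 cornea and marrow libraries, and the weakest of the 4 pairs, brain microglia against cornea macrophages, was at least 367-fold higher. Both genes were seen in each of the 8 microglial libraries and in none of the 8 others. Tmem100, a membrane protein linked to BMP signalling, lay at 92.4 to 129 CPM (median 111) in the 8 microglial libraries, against 0 to 0.0904 CPM (median 0) in the 8 cornea and marrow libraries, and the weakest of the 4 pairs, retinal microglia against cornea macrophages, was at least 1642-fold higher. Nav3, a neuron navigator protein, lay at 120.2 to 292 CPM (median 184) in the 8 microglial libraries, against 0 to 0.462 CPM (median 0) in the 8 cornea and marrow libraries, and the weakest of the 4 pairs, brain microglia against cornea macrophages, was 1117-fold higher. The same rule named Asap3, Csmd3, Lrrc3 and Tspan18. For Asap3 the weakest of the 4 pairs, brain microglia against cornea macrophages, was at least 936-fold higher, and for Csmd3 the weakest of the 4 pairs, retinal microglia against cornea macrophages, was 1115-fold higher with a counting interval of 308 to 9212. The weakest pair was 821-fold higher for Lrrc3 and 431-fold higher for Tspan18.

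**Figure D3:**
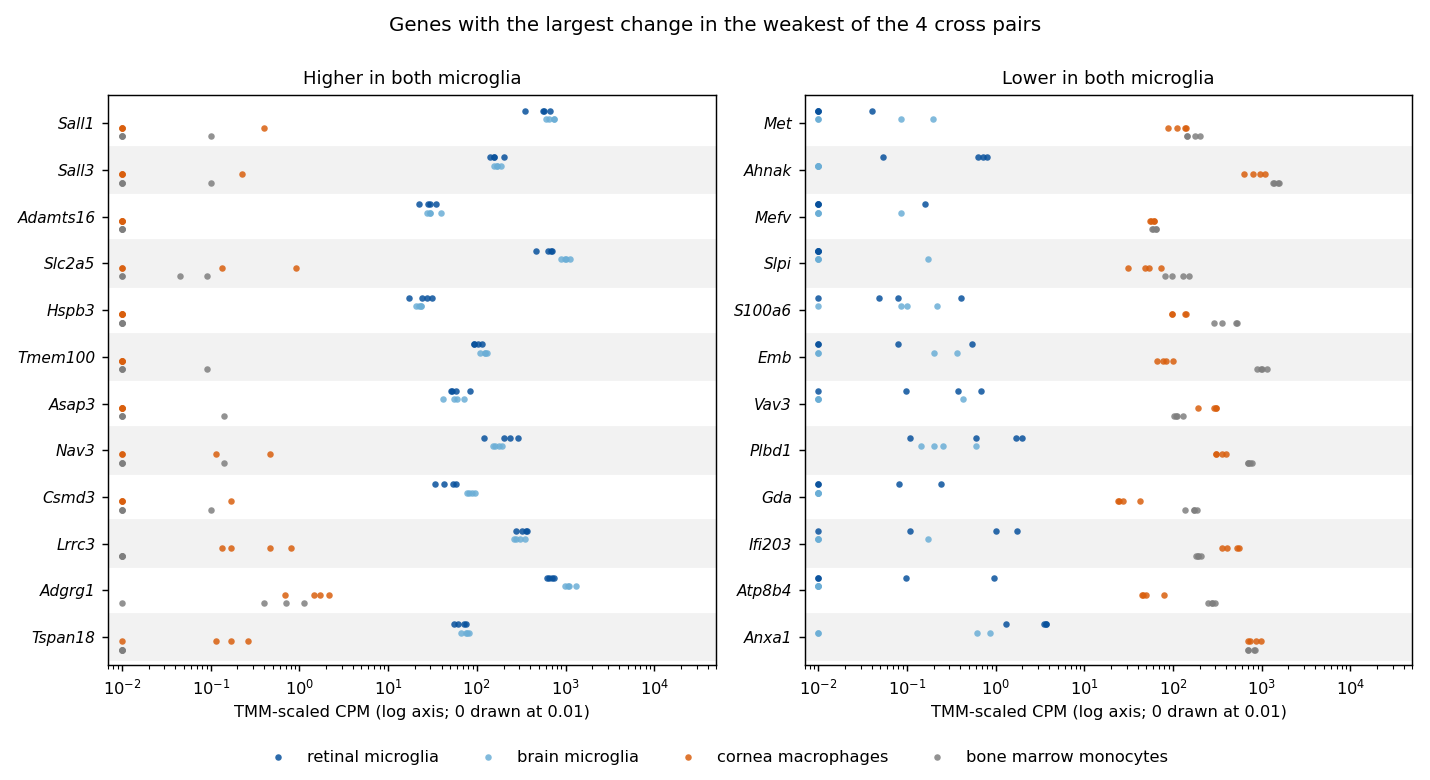
TMM-scaled CPM (x axis, log scale, 0 drawn at 0.01) of the 12 genes with the largest change in the weakest of the 4 cross pairs in each direction, higher (left) and lower (right) in both microglia. Each point is a library, coloured by population. Microglial points of Sall1 lie between 353 and 746 CPM and those of Met at or under 0.198 CPM. The microglial and other points do not overlap in any gene shown, because the genes were chosen for this.

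**Figure D4:**
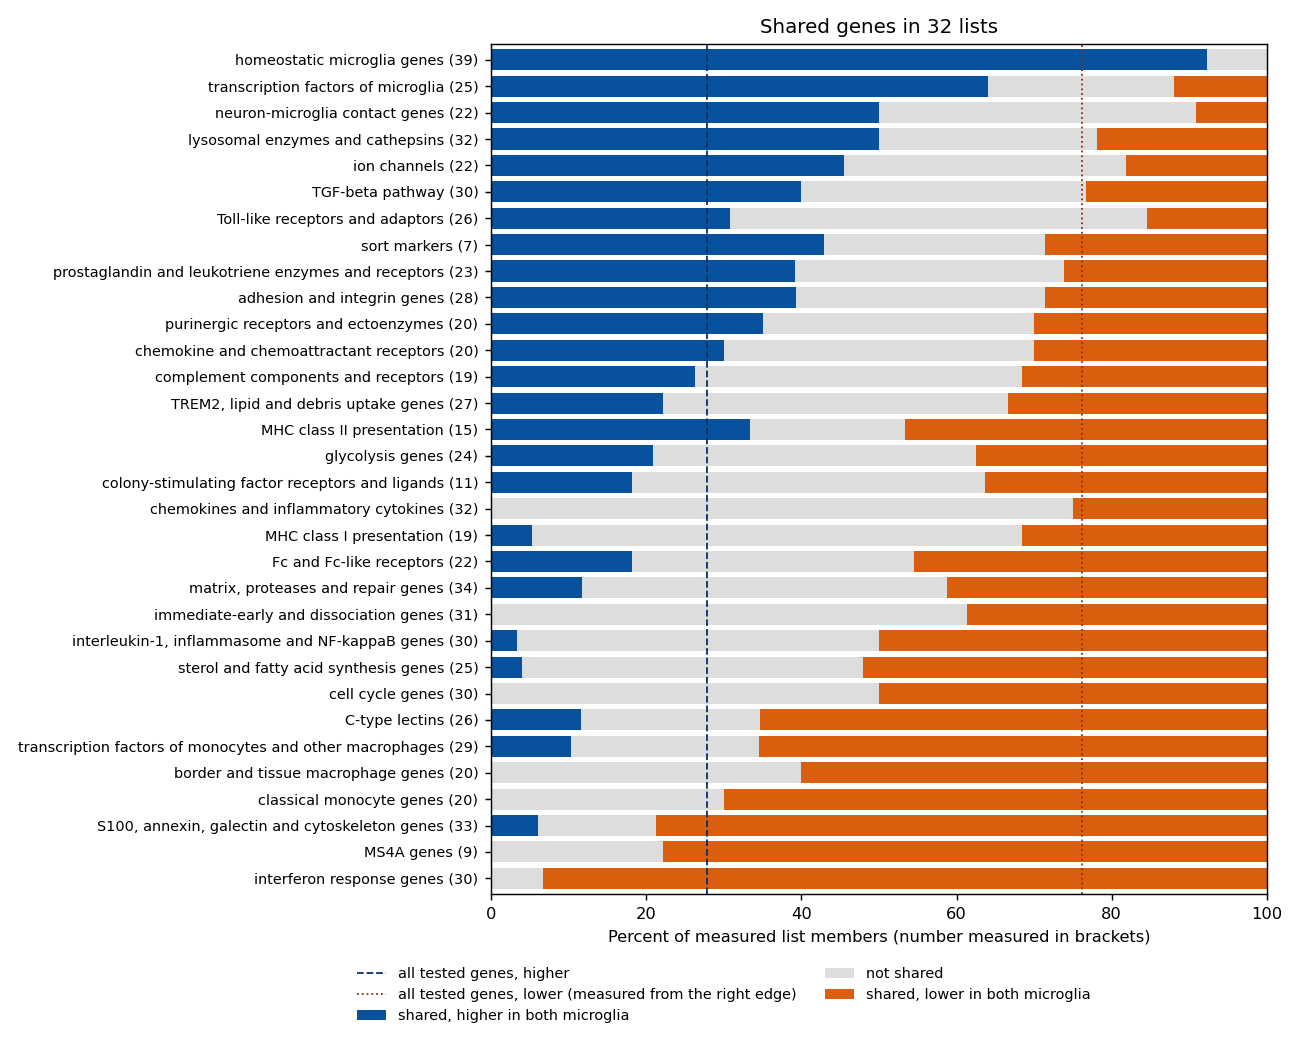
Percent of the measured members of each of 32 gene lists (x axis) that were shared and higher in both microglia (blue, from the left), shared and lower (orange, from the right) or not shared (grey), with the number measured in brackets. The dashed line marks 27.9% from the left and the dotted line 23.8% from the right, the shares over all tested genes. Genes of resting microglia stand at the top with 36 of 39 higher, and interferon response genes at the bottom with 28 of 30 lower.

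Over all tested genes, 27.9% were shared higher and 23.8% lower, and each list count below is to be read against these shares. Genes of resting (homeostatic) microglia were the list with the largest share in the higher direction. Of 39 measured members, 36 were shared higher, 34 of them strictly, and none was lower, with a median log2 fold change of 4.75 against 0.08 over all tested genes. P2ry12, the ADP receptor that guides microglial processes towards nucleotides, had 6702, 8298, 8502 and 6606 CPM in retinal microglia, and 13062, 13951, 13839 and 14289 CPM in brain microglia. P2ry12 had 56.4, 56.9, 66.2 and 101 CPM in cornea macrophages, and 4.83, 8.17, 8.13 and 6.75 CPM in monocytes (log2 fold change 8.85, SE 0.18, adjusted p = 3.8e-16). Each brain library lay above each retinal library, and the retinal libraries above all others. Tmem119, a membrane protein used as a microglial marker, averaged 2836 ± 456 CPM in retinal microglia and 3774 ± 364 CPM in brain microglia, against 20.3 ± 3.51 CPM in cornea macrophages and 5.16 ± 1.08 CPM in monocytes (mean ± SD over 4 libraries, log2 fold change 8.31, SE 0.15, adjusted p = 1.7e-16). Gpr34, a receptor for lysophosphatidylserine, averaged 2767 ± 403 CPM in retinal microglia and 4072 ± 242 CPM in brain microglia, against 71.3 ± 18.1 CPM in cornea macrophages and 2.56 ± 0.488 CPM in monocytes (log2 fold change 7.96, SE 0.16, adjusted p = 1.8e-16). Siglech, a sialic acid-binding lectin, averaged 1438 ± 325 CPM in retinal microglia and 1690.2 ± 71.0 CPM in brain microglia, against 25.2 ± 4.47 CPM in cornea macrophages and 0.29 ± 0.286 CPM in monocytes (log2 fold change 9.04, SE 0.25, adjusted p = 8.5e-15). Ecscr, a small membrane glycoprotein first described in endothelium, averaged 264 ± 77.4 CPM in retinal microglia and 419 ± 52.0 CPM in brain microglia, against 4.54 ± 1.52 CPM in cornea macrophages and 0.0113 ± 0.0226 CPM in monocytes. In 13 of the 39 members retinal microglia lay below brain microglia at an adjusted p under 0.05 (3.6% of all tested genes did), and in none above (6.95% of all). The retinal and brain libraries lay on different lanes.

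Cx3cr1, the receptor for the neuronal chemokine fractalkine, averaged 3573 ± 623 CPM in retinal microglia and 5332 ± 811 CPM in brain microglia, against 99.6 ± 11.0 CPM in cornea macrophages and 442 ± 137 CPM in monocytes (log2 fold change 4.38, SE 0.15, adjusted p = 1.4e-13), so monocytes held more of it than cornea macrophages. Olfml3, a secreted olfactomedin-like protein, averaged 2306 ± 515 CPM in retinal microglia and 2995 ± 603 CPM in brain microglia, against 94.0 ± 9.43 CPM in cornea macrophages and 0.532 ± 0.643 CPM in monocytes (log2 fold change 8.40, SE 0.31, adjusted p = 3.4e-13). The other 3 members of this list were not shared, since cornea macrophages held more than at least 1 microglial population. Fcrls, an Fc receptor-like scavenger receptor, averaged 591 and 3453 CPM in retinal and brain microglia, against 1069.6 CPM in cornea macrophages and 0.548 CPM in monocytes. Hpgds, the haematopoietic prostaglandin D synthase, averaged 432 and 489 CPM in retinal and brain microglia, against 1077 CPM in cornea macrophages and 0.758 CPM in monocytes. Upk1b, a tetraspanin, averaged 21.2 and 126 CPM in retinal and brain microglia, against 33.9 CPM in cornea macrophages and 0.102 CPM in monocytes. Genes given here outside the rule for named genes were chosen after their values were seen.

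Among 25 measured transcription factors known for microglia, 16 were shared higher, 12 of them strictly, and 3 were shared lower. Mef2c, a MADS-box factor of microglia and neurons, averaged 651 ± 176 CPM in retinal microglia and 900.5 ± 92.3 CPM in brain microglia, against 102 ± 14.8 CPM in cornea macrophages and 105 ± 21.5 CPM in monocytes (log2 fold change 2.89, SE 0.15, adjusted p = 1.4e-11). Bhlhe41 averaged 384 ± 40.4 CPM in retinal microglia and 213 ± 11.0 CPM in brain microglia, against 88.9 ± 30.2 CPM in cornea macrophages and 0.136 ± 0.0639 CPM in monocytes, and its call was lost with the libraries fitted as 2 groups of 8 (adjusted p = 0.056). Smad3, Etv1, Etv5, Tal1, Zfp691, Bach2 and Zbtb18 were among the other strictly higher factors. The 3 lower factors were Bhlhe40, Foxp1 and Spi1. Bhlhe40, the close relative of Bhlhe41, averaged 3.55 ± 1.76 CPM in retinal microglia and 0.576 ± 0.666 CPM in brain microglia, against 282 ± 13.6 CPM in cornea macrophages and 8.64 ± 3.69 CPM in monocytes (log2 fold change -5.14, SE 0.39, adjusted p = 3.7e-09). Foxp1 averaged 51.6 ± 7.66 CPM in retinal microglia and 68.4 ± 9.89 CPM in brain microglia, against 257 ± 39.0 CPM in cornea macrophages and 145 ± 11.8 CPM in monocytes (log2 fold change -1.70, SE 0.10, adjusted p = 2.0e-10). Spi1, which encodes the myeloid factor PU.1, averaged 211 ± 44.2 CPM in retinal microglia and 246 ± 24.0 CPM in brain microglia, against 557 ± 60.8 CPM in cornea macrophages and 262 ± 28.7 CPM in monocytes (log2 fold change -0.74, SE 0.10, adjusted p = 5.3e-06), and its marrow and microglial libraries overlapped. Runx1, Egr1, Jun, Junb, Mef2d and Zeb1 were not shared.

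The signalling receptors for TGF-beta were higher in both microglia, while members of the pathway as a whole ran in both directions. Of 30 measured members, 12 were shared higher (40%, against 27.9% of all tested genes) and 7 lower (23.3%, near the 23.8% of all). The median log2 fold change was 0.32 (0.21 with members of 3 or fewer counts in a population set at the floor). Tgfbr2, the type II receptor that binds the ligand, averaged 975 ± 179.8 CPM in retinal microglia and 950.1 ± 93.9 CPM in brain microglia, against 235 ± 18.0 CPM in cornea macrophages and 98.7 ± 5.05 CPM in monocytes (log2 fold change 2.66, SE 0.10, adjusted p = 2.5e-13). Tgfbr1, the kinase that it recruits, averaged 1641 ± 493 CPM in retinal microglia and 2778 ± 451 CPM in brain microglia, against 777 ± 123 CPM in cornea macrophages and 78.9 ± 3.85 CPM in monocytes (log2 fold change 3.11, SE 0.15, adjusted p = 7.7e-12), and its microglial and other libraries overlapped. Bmpr1a, a receptor for bone morphogenetic proteins, averaged 33.7 ± 7.70 CPM in retinal microglia and 35.6 ± 4.95 CPM in brain microglia, against 10.1 ± 5.43 CPM in cornea macrophages and 0.108 ± 0.172 CPM in monocytes (log2 fold change 4.78, SE 0.34, adjusted p = 1.5e-09). Tgfbi, a matrix protein induced by TGF-beta, averaged 122 ± 15.2 CPM in retinal microglia and 78.0 ± 14.3 CPM in brain microglia, against 763 ± 104 CPM in cornea macrophages and 1361 ± 41.6 CPM in monocytes (log2 fold change -3.39, SE 0.11, adjusted p = 5.4e-14). Tgfbr3, a co-receptor, lay at 0 to 0.29 CPM (median 0) in the 8 microglial libraries, against 0 to 9.23 CPM (median 4.49) in the 8 cornea and marrow libraries. The mediators Smad1, Smad3, Smad5 and Smad7 were shared higher, and Smad2 and Smad4 were shared lower.

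In the colony-stimulating factor system, the receptors for CSF1 and CSF3 were shared higher and the receptors of the GM-CSF system and of earlier blood progenitors were shared lower. These were 2 (18.2%) and 4 (36.4%) of 11 measured members, against 27.9% and 23.8% of all tested genes. Csf1r, the receptor for the macrophage growth factor CSF1, averaged 8247 ± 971 CPM in retinal microglia and 11975 ± 1366 CPM in brain microglia, against 2800.2 ± 234 CPM in cornea macrophages and 1540.2 ± 91.3 CPM in monocytes (log2 fold change 2.26, SE 0.09, adjusted p = 5.2e-13). Csf3r, the receptor for granulocyte colony-stimulating factor, averaged 410.2 ± 23.6 CPM in retinal microglia and 379 ± 37.4 CPM in brain microglia, against 110.3 ± 21.2 CPM in cornea macrophages and 248 ± 8.53 CPM in monocytes (log2 fold change 1.25, SE 0.09, adjusted p = 2.6e-09). Csf2ra, the GM-CSF receptor alpha chain, averaged 95.2 ± 18.7 CPM in retinal microglia and 31.6 ± 8.65 CPM in brain microglia, against 182 ± 36.9 CPM in cornea macrophages and 192 ± 24.5 CPM in monocytes (log2 fold change -1.77, SE 0.14, adjusted p = 7.6e-09). Flt3, a receptor of progenitors and dendritic cells, averaged 2.06 ± 0.783 CPM in retinal microglia and 1.15 ± 1.02 CPM in brain microglia, against 4.37 ± 2.81 CPM in cornea macrophages and 36.4 ± 11.6 CPM in monocytes (log2 fold change -3.03, SE 0.44, adjusted p = 1.1e-05). Kit, the stem cell factor receptor, lay at 0 to 0.293 CPM (median 0) in the 8 microglial libraries, against 0 to 11.0 CPM (median 3.99) in the 8 cornea and marrow libraries.

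Of 20 measured receptors and ectoenzymes for extracellular nucleotides and adenosine, 7 were shared higher (35%) and 6 lower (30%). These shares were near the 27.9% and 23.8% of all tested genes. Beside P2ry12, the receptors P2ry13, P2ry6, P2rx1, Adora1 and Adora3 and the ectoenzyme Entpd1 were higher. Adora1, the A1 adenosine receptor, lay at 0 to 25.9 CPM (median 9.62) in the 8 microglial libraries, against 0 CPM in each of the 8 cornea and marrow libraries, with retinal libraries above brain libraries (21.7 and 1.27 CPM in retinal and brain microglia, against 0 CPM in cornea macrophages and 0 CPM in monocytes), and the weakest of the 4 pairs, brain microglia against cornea macrophages, was at least 21.8-fold higher. P2ry1, another ADP receptor, lay at 0 to 0.0992 CPM (median 0) in the 8 microglial libraries, against 0.308 to 49.0 CPM (median 17.3) in the 8 cornea and marrow libraries. Adora2b, a low-affinity adenosine receptor, lay at 0 to 1.13 CPM (median 0.0269) in the 8 microglial libraries, against 26.4 to 52.1 CPM (median 37.5) in the 8 cornea and marrow libraries (log2 fold change -7.54, SE 0.53, adjusted p = 1.3e-09).

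Of 22 measured genes through which microglia are known to sense neurons, 11 were shared higher, 9 strictly, and 2 were lower. Plxdc2, a membrane receptor of the plexin domain family, averaged 1020.0 ± 133 CPM in retinal microglia and 1039 ± 52.7 CPM in brain microglia, against 43.0 ± 2.48 CPM in cornea macrophages and 0.731 ± 0.835 CPM in monocytes (log2 fold change 7.55, SE 0.29, adjusted p = 5.3e-13). Adrb1, the beta-1 adrenergic receptor, lay at 19.0 to 72.4 CPM (median 44.9) in the 8 microglial libraries, against 0 to 0.767 CPM (median 0) in the 8 cornea and marrow libraries, and the weakest of the 4 pairs, retinal microglia against cornea macrophages, was 139-fold higher. Gabbr1, a subunit of the GABA-B receptor, averaged 20.7 ± 1.10 CPM in retinal microglia and 18.0 ± 3.01 CPM in brain microglia, against 4.03 ± 1.49 CPM in cornea macrophages and 0.029 ± 0.0352 CPM in monocytes, and the weakest of the 4 pairs, brain microglia against cornea macrophages, was 4.44-fold higher. Cd47, the signal against engulfment, averaged 193 ± 22.3 CPM in retinal microglia and 262 ± 16.6 CPM in brain microglia, against 299 ± 21.9 CPM in cornea macrophages and 698 ± 26.3 CPM in monocytes (log2 fold change -1.02, SE 0.08, adjusted p = 2.3e-09). Il1rap, the shared subunit of the interleukin-1 receptors, had a log2 fold change of -1.15. Cd47 was no longer shared when libraries were scaled by total counts. Summed markers of neurons lay at 29.0 to 269 CPM in retinal microglia and 1.11 to 1.79 CPM in brain microglia, against 0 to 1.02 CPM in cornea macrophages and 0.598 to 1.07 CPM in monocytes. Their part in the neuron-facing genes was not tested, and 3 of the 5 neuron markers measured were themselves shared higher (Snap25, Nefl and Syt1). Syt1 lost its call without brain replicate 1.

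Of 22 measured ion channel genes, 10 were shared higher (45.5%), 8 strictly, and 4 were lower (18.2%). Of all tested genes, 27.9% and 23.8% were. Kcnma1, the large-conductance calcium-activated potassium channel, lay at 2.75 to 18.9 CPM (median 13.7) in the 8 microglial libraries, against 0 to 0.199 CPM (median 0) in the 8 cornea and marrow libraries, and the weakest of the 4 pairs, retinal microglia against monocytes, was 178-fold higher with a counting interval of 60.7 to 865. Kcnd1, a voltage-gated potassium channel, averaged 66.1 ± 9.84 CPM in retinal microglia and 121 ± 9.76 CPM in brain microglia, against 0.629 ± 1.00 CPM in cornea macrophages and 0.5 ± 0.597 CPM in monocytes (log2 fold change 7.17, SE 0.47, adjusted p = 5.0e-10). Kcnk12, of the family of 2-pore potassium channels, averaged 8.29 ± 3.68 CPM in retinal microglia and 22.5 ± 7.87 CPM in brain microglia, against 0.0759 ± 0.107 CPM in cornea macrophages and 3.14 ± 0.288 CPM in monocytes, and the weakest of the 4 pairs, retinal microglia against monocytes, was 2.64-fold higher. Clic4, an intracellular chloride channel protein, averaged 38.0 ± 9.61 CPM in retinal microglia and 18.1 ± 3.16 CPM in brain microglia, against 3803 ± 877 CPM in cornea macrophages and 84.2 ± 6.36 CPM in monocytes (log2 fold change -4.43, SE 0.16, adjusted p = 1.8e-13). Piezo1, a mechanosensitive channel, averaged 21.6 ± 9.77 CPM in retinal microglia and 22.1 ± 5.09 CPM in brain microglia, against 213 ± 39.2 CPM in cornea macrophages and 63.6 ± 10.8 CPM in monocytes (log2 fold change -2.41, SE 0.22, adjusted p = 3.0e-08).

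Genes of digestion leaned to the microglial side, and genes of uptake did not. Of 32 measured lysosomal genes, 16 were shared higher (50%, against 27.9% of all tested genes) and 7 lower (21.9%, near the 23.8% of all). At a minimum change of 2-fold, 8 were shared higher and 3 lower. Strictly, 6 were higher and 1 was lower, and 3 in place of 7 were shared lower by total counts. Ctsf, a cysteine cathepsin, averaged 379 ± 71.0 CPM in retinal microglia and 375 ± 15.9 CPM in brain microglia, against 49.0 ± 1.34 CPM in cornea macrophages and 1.72 ± 0.92 CPM in monocytes (log2 fold change 5.36, SE 0.17, adjusted p = 6.1e-14). Ctsd, Ctss, Lgmn and the cystatin Cst3 were strictly higher, and Gla, the alpha-galactosidase, was lower at 7.87 ± 1.82 CPM in retinal microglia and 4.58 ± 3.02 CPM in brain microglia, against 829 ± 191 CPM in cornea macrophages and 15.4 ± 3.74 CPM in monocytes (log2 fold change -4.22, SE 0.24, adjusted p = 6.7e-11). Among 27 measured genes of lipid and debris uptake, 6 were shared higher (22.2%) and 9 lower (33.3%). Of all tested genes, 27.9% and 23.8% were. Trem2, a lipid-sensing receptor, averaged 984 ± 244 CPM in retinal microglia and 963 ± 101 CPM in brain microglia, against 192 ± 13.2 CPM in cornea macrophages and 29.5 ± 4.53 CPM in monocytes (log2 fold change 3.69, SE 0.12, adjusted p = 8.6e-14). Mertk, a receptor for phosphatidylserine-bound bridging proteins, averaged 584 ± 115 CPM in retinal microglia and 1057 ± 49.0 CPM in brain microglia, against 49.9 ± 13.8 CPM in cornea macrophages and 2.85 ± 0.606 CPM in monocytes (log2 fold change 6.03, SE 0.17, adjusted p = 1.3e-14). Itgb5, an integrin chain used in uptake of dead cells, averaged 2246 ± 283 CPM in retinal microglia and 2953 ± 368 CPM in brain microglia, against 166 ± 14.9 CPM in cornea macrophages and 55.2 ± 5.22 CPM in monocytes (log2 fold change 4.75, SE 0.10, adjusted p = 6.5e-16). The scavenger receptors Msr1 and Cd36 ran the other way. Msr1 averaged 3.64 ± 2.46 CPM in retinal microglia and 3.43 ± 0.899 CPM in brain microglia, against 541 ± 76.0 CPM in cornea macrophages and 287 ± 17.4 CPM in monocytes (log2 fold change -6.82, SE 0.29, adjusted p = 1.4e-12). Cd36, which also takes up fatty acids, averaged 1.77 ± 1.42 CPM in retinal microglia and 0.815 ± 0.579 CPM in brain microglia, against 1991 ± 357 CPM in cornea macrophages and 9.64 ± 4.37 CPM in monocytes (log2 fold change -6.78, SE 0.39, adjusted p = 7.7e-11).

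Of 19 measured complement genes, 5 were shared higher (26.3%) and 6 lower (31.6%). These shares were near the 27.9% and 23.8% of all tested genes. The C1q chains, which start the classical pathway, were high in both microglia and present in the cornea, and monocytes were the low point. C1qa averaged 1765 ± 531 CPM in retinal microglia and 1907 ± 368 CPM in brain microglia, against 644 ± 52.9 CPM in cornea macrophages and 2.29 ± 2.67 CPM in monocytes. C1qc averaged 5078 ± 1206 CPM in retinal microglia and 5128 ± 920.4 CPM in brain microglia, against 1922 ± 202 CPM in cornea macrophages and 5.02 ± 5.15 CPM in monocytes. Fitted as 2 groups of 8 libraries, 2 complement genes in place of 5 were shared higher, and C1qa and C1qc lost their call (adjusted p = 0.086 and 0.099). The lower genes included the central component C3, at 3.47 ± 1.30 CPM in retinal microglia and 0.151 ± 0.0686 CPM in brain microglia, against 77.5 ± 24.7 CPM in cornea macrophages and 1771 ± 125 CPM in monocytes (log2 fold change -8.93, SE 0.25, adjusted p = 1.2e-14), and properdin, Cfp, at 1.50 ± 0.656 CPM in retinal microglia and 0.86 ± 0.413 CPM in brain microglia, against 563 ± 120.1 CPM in cornea macrophages and 319 ± 19.8 CPM in monocytes (log2 fold change -8.56, SE 0.23, adjusted p = 8.1e-15). Cd93, a membrane receptor once taken for a C1q receptor, lay at 0 to 2.21 CPM (median 0.183) in the 8 microglial libraries, against 69.5 to 699.8 CPM (median 355) in the 8 cornea and marrow libraries.

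Of 28 measured adhesion genes, 11 were shared higher (39.3%) and 8 lower (28.6%). Of all tested genes, 27.9% and 23.8% were. The junctional molecules F11r and Jam2, which link cells of vessel walls and leukocytes, were among the higher genes. F11r averaged 947 ± 100.0 CPM in retinal microglia and 1155 ± 77.3 CPM in brain microglia, against 62.3 ± 14.9 CPM in cornea macrophages and 1.58 ± 0.987 CPM in monocytes (log2 fold change 6.71, SE 0.20, adjusted p = 2.7e-14). Jam2 averaged 206 ± 3.80 CPM in retinal microglia and 259 ± 27.5 CPM in brain microglia, against 13.4 ± 6.19 CPM in cornea macrophages and 0.0645 ± 0.101 CPM in monocytes. The lower genes were mostly integrin chains. Itgb7 averaged 1.03 ± 0.766 CPM in retinal microglia and 0.51 ± 0.688 CPM in brain microglia, against 19.1 ± 4.63 CPM in cornea macrophages and 1127 ± 14.4 CPM in monocytes (log2 fold change -7.76, SE 0.37, adjusted p = 7.6e-12). Itga1 lay at 0 CPM in each of the 8 microglial libraries, against 0.133 to 81.1 CPM (median 34.2) in the 8 cornea and marrow libraries. Itgal, Itga4, Itga5 and Itgb2, with Cd44 and Spn, were also shared lower.

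Of 26 measured Toll-like receptors and adaptors, 8 were shared higher (30.8%, near the 27.9% of all tested genes) and 4 lower. Tlr3, the receptor for double-stranded RNA, averaged 108 ± 28.5 CPM in retinal microglia and 161 ± 9.39 CPM in brain microglia, against 9.48 ± 3.71 CPM in cornea macrophages and 5.00 ± 1.77 CPM in monocytes (log2 fold change 4.26, SE 0.23, adjusted p = 2.7e-11). Tlr12, a receptor for profilin of parasites in mice, averaged 35.3 ± 5.52 CPM in retinal microglia and 42.8 ± 6.79 CPM in brain microglia, against 0.263 ± 0.453 CPM in cornea macrophages and 0.382 ± 0.463 CPM in monocytes (log2 fold change 6.90, SE 0.46, adjusted p = 5.7e-10). Tlr8 lay at 0 to 2.15 CPM (median 0) in the 8 microglial libraries, against 8.1 to 97.8 CPM (median 44.3) in the 8 cornea and marrow libraries. Irak3, an inhibitor of Toll-like receptor signalling, averaged 11.1 ± 2.28 CPM in retinal microglia and 6.23 ± 3.19 CPM in brain microglia, against 149 ± 21.9 CPM in cornea macrophages and 96.2 ± 10.7 CPM in monocytes (log2 fold change -3.86, SE 0.23, adjusted p = 1.1e-10). Of 23 measured prostaglandin and leukotriene genes, 9 were shared higher (39.1%) and 6 lower (26.1%, near the 23.8% of all tested genes). Ptgs1, the cyclooxygenase known as COX-1, averaged 1264 ± 163 CPM in retinal microglia and 1343 ± 112 CPM in brain microglia, against 96.0 ± 5.34 CPM in cornea macrophages and 59.4 ± 13.9 CPM in monocytes (log2 fold change 4.11, SE 0.12, adjusted p = 1.2e-14). Ltc4s, the leukotriene C4 synthase, averaged 163 ± 36.3 CPM in retinal microglia and 171 ± 44.6 CPM in brain microglia, against 15.8 ± 6.33 CPM in cornea macrophages and 0.136 ± 0.271 CPM in monocytes (log2 fold change 6.51, SE 0.33, adjusted p = 1.6e-11). The lower genes included 3 receptors that raise cyclic AMP. Ptgir, the prostacyclin receptor, lay at 0 to 0.0488 CPM (median 0) in the 8 microglial libraries, against 10.8 to 91.9 CPM (median 42.7) in the 8 cornea and marrow libraries, and the weakest of the 4 pairs, brain microglia against cornea macrophages, was at least 224-fold lower. Ptger2 lay at 0 to 0.868 CPM (median 0) in the 8 microglial libraries, against 15.8 to 34.7 CPM (median 24.0) in the 8 cornea and marrow libraries, and Ptger4 was also strictly lower.

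The evenest genes of the microglial side were chosen by the smallest difference within either side. Cd34, a sialomucin known from blood progenitors and vessels, had 463, 495, 561 and 465 CPM in retinal microglia, and 459, 485, 441 and 485 CPM in brain microglia. Cd34 had 7.26, 7.75, 12.3 and 8.70 CPM in cornea macrophages, and 8.45, 8.67, 6.94 and 12.9 CPM in monocytes (log2 fold change 5.72, SE 0.15, adjusted p = 4.5e-15). Retinal and brain libraries overlapped, as did cornea and marrow libraries. The other 7 were Gm21769, Fam120b, Dhrs7b, Slc10a3, Rnaset2a, Mepce and Btrc, with log2 fold changes between 1.13 (Fam120b and Mepce) and 2.02 (Dhrs7b). The evenest genes of the lower side were D17Wsu92e, Usp7, Gm3531, Nabp1, Gm10177, Gm5867, Cox6b1 and Pgk1-rs7, with log2 fold changes between -2.89 (Nabp1) and -1.06 (Cox6b1). Nabp1, a single-stranded DNA-binding protein, averaged 9.32 ± 2.27 CPM in retinal microglia and 8.96 ± 3.97 CPM in brain microglia, against 67.5 ± 21.0 CPM in cornea macrophages and 67.2 ± 10.6 CPM in monocytes. Entries with Gm numbers and Pgk1-rs7 resemble other genes, and the counts may have been split between copies.

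Met led the genes lower in both microglia. It encodes the receptor for hepatocyte growth factor (gene at chr6:17463800-17573980, plus strand) and had 0, 0, 0 and 0.0403 CPM in retinal microglia, and 0.0857, 0, 0.198 and 0 CPM in brain microglia. Met had 109, 136, 87.7 and 140.0 CPM in cornea macrophages, and 145, 145, 178 and 200.5 CPM in monocytes. No microglial library exceeded 0.198 CPM, and the weakest of the 4 pairs, brain microglia against cornea macrophages, was 1808-fold lower with a counting interval of 618 to 8768. Ahnak, a giant scaffold protein under the plasma membrane (gene at chr19:8989284-9076914, plus strand), had 0.71, 0.635, 0.0539 and 0.805 CPM in retinal microglia, and 0, 0, 0 and 0 CPM in brain microglia. Ahnak had 945, 794, 1082 and 626 CPM in cornea macrophages, and 1386, 1571, 1348 and 1536 CPM in monocytes. The brain libraries held no Ahnak count, which makes cornea macrophages at least 12797-fold and monocytes at least 21902-fold higher than brain microglia against a floor of 3 counts over the brain libraries. Mefv encodes pyrin, an inflammasome sensor of myeloid cells, and lay at 0 to 0.162 CPM (median 0) in the 8 microglial libraries, against 54.8 to 64.9 CPM (median 60.3) in the 8 cornea and marrow libraries, and the weakest of the 4 pairs, retinal microglia against cornea macrophages, was 1474-fold lower with a counting interval of 504 to 7153. Slpi, an inhibitor of leukocyte proteases, lay at 0 to 0.171 CPM (median 0) in the 8 microglial libraries, against 31.2 to 152 CPM (median 77.0) in the 8 cornea and marrow libraries, and the weakest of the 4 pairs, brain microglia against cornea macrophages, was 1130.3-fold lower with a counting interval of 313 to 9338. Emb, an adhesion glycoprotein that travels with monocarboxylate transporters, averaged 0.154 and 0.142 CPM in retinal and brain microglia, against 81.4 CPM in cornea macrophages and 999 CPM in monocytes, so monocytes stood above cornea macrophages. Vav3, a guanine nucleotide exchange factor, averaged 0.29 and 0.107 CPM in retinal and brain microglia, against 270.1 CPM in cornea macrophages and 113 CPM in monocytes. Plbd1, Gda, Ifi203 and Atp8b4 completed the genes named by this rule beside S100a6 and Anxa1, and the weakest pair of these 4 lay between 275-fold and 324-fold lower.

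S100 proteins, annexins, galectins and cytoskeletal genes were lower in both microglia as a list. Of 33 measured members, 26 were shared lower, 22 strictly, and 2 were higher, with a median log2 fold change of -3.26. S100a6, a calcium-binding protein that pairs with annexins, had 0.0789, 0.0488, 0 and 0.403 CPM in retinal microglia, and 0.0857, 0, 0.0992 and 0.218 CPM in brain microglia. S100a6 had 139, 97.0, 136 and 96.5 CPM in cornea macrophages, and 509, 521, 356 and 287 CPM in monocytes. Anxa1, a calcium-dependent membrane-binding protein that limits inflammation, had 3.47, 3.66, 1.29 and 3.70 CPM in retinal microglia, and 0.857, 0.61, 0 and 0 CPM in brain microglia. Anxa1 had 735, 707, 850.1 and 972 CPM in cornea macrophages, and 823, 697, 708 and 833 CPM in monocytes (log2 fold change -9.55, SE 0.32, adjusted p = 9.7e-14). For both genes the lowest cornea or marrow library was above the highest microglial library, which the rule that named them required. Vim, the intermediate filament protein vimentin, averaged 16.4 ± 2.78 CPM in retinal microglia and 4.06 ± 0.436 CPM in brain microglia, against 2324 ± 521 CPM in cornea macrophages and 1699 ± 52.0 CPM in monocytes (log2 fold change -7.92, SE 0.14, adjusted p = 1.7e-16). Lgals3, a sugar-binding galectin, averaged 30.9 ± 11.4 CPM in retinal microglia and 2.69 ± 0.811 CPM in brain microglia, against 4790.3 ± 605 CPM in cornea macrophages and 1462 ± 105 CPM in monocytes (log2 fold change -8.18, SE 0.21, adjusted p = 4.5e-15). Emp1 was lower mainly against the cornea, at 0.0101 and 0.0214 CPM in retinal and brain microglia, against 1339.8 CPM in cornea macrophages and 0.483 CPM in monocytes. Anxa3 and Lgals9 were higher in microglia. Anxa3 averaged 639 ± 78.2 CPM in retinal microglia and 505 ± 56.9 CPM in brain microglia, against 325 ± 32.0 CPM in cornea macrophages and 153 ± 29.0 CPM in monocytes (log2 fold change 1.35, SE 0.10, adjusted p = 3.0e-09). Lgals9 averaged 354 ± 114 CPM in retinal microglia and 367 ± 13.7 CPM in brain microglia, against 179 ± 24.8 CPM in cornea macrophages and 301 ± 25.3 CPM in monocytes (log2 fold change 0.64, SE 0.12, adjusted p = 2.0e-04), though Lgals9 was no longer shared without retina replicate 3.

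Interferon response genes were lower in both microglia almost throughout the list. Of 30 measured members, 28 were shared lower, 22 strictly, and none was higher, with a median log2 fold change of -3.47. By total counts 23 were shared lower. Ifi205, a DNA-binding protein of the interferon-induced Ifi200 family, had 0.158, 1.22, 1.29 and 0.805 CPM in retinal microglia, and 0, 0, 0 and 0 CPM in brain microglia. Ifi205 had 188, 262, 251 and 318 CPM in cornea macrophages, and 106, 102, 108 and 110.4 CPM in monocytes. Oas3, a sensor of double-stranded RNA, had 0.552, 1.37, 0.862 and 2.01 CPM in retinal microglia, and 0, 0.915, 0 and 0 CPM in brain microglia. Oas3 had 23.1, 38.3, 42.2 and 49.6 CPM in cornea macrophages, and 131, 167, 121 and 139.6 CPM in monocytes (log2 fold change -7.15, SE 0.39, adjusted p = 3.6e-11). Ifitm2, which hinders viral entry, averaged 5.23 ± 0.707 CPM in retinal microglia and 0.505 ± 0.298 CPM in brain microglia, against 297 ± 58.6 CPM in cornea macrophages and 166 ± 56.0 CPM in monocytes (log2 fold change -7.08, SE 0.23, adjusted p = 7.4e-14). The windows of Ifi205, Oas3 and Ifitm2 printed above held the IRF letters. These genes were picked as the strictly lower members with the most negative log2 fold change. Of the 22 list members with a RefSeq promoter, 12 (54.5%) held the IRF letters, so not all did. Those 22 were 75.9% of the protein-coding members, and no comparison with other genes was made. Ifitm3, of the same family, averaged 24.0 ± 10.7 CPM in retinal microglia and 5.36 ± 1.48 CPM in brain microglia, against 332 ± 8.67 CPM in cornea macrophages and 1169.6 ± 274 CPM in monocytes (log2 fold change -5.78, SE 0.22, adjusted p = 3.8e-13). Oasl1, an OAS-like protein, averaged 6.63 ± 1.74 CPM in retinal microglia and 1.01 ± 0.995 CPM in brain microglia, against 1457 ± 394 CPM in cornea macrophages and 44.2 ± 3.39 CPM in monocytes (log2 fold change -6.65, SE 0.31, adjusted p = 6.1e-12), so cornea macrophages stood above monocytes. Irf7, the factor that amplifies type I interferon, averaged 38.6 ± 5.40 CPM in retinal microglia and 7.78 ± 2.31 CPM in brain microglia, against 201 ± 52.6 CPM in cornea macrophages and 402 ± 75.6 CPM in monocytes (log2 fold change -4.04, SE 0.16, adjusted p = 9.9e-13). Within microglia, 23 of the 30 members were higher in the retina than in the brain at an adjusted p under 0.05, against 6.95% of all tested genes, and none was lower. The retinal and brain libraries lay on different lanes. Bst2, the antiviral tetherin, was not shared and averaged 93.9 and 51.7 CPM in retinal and brain microglia, against 186 CPM in cornea macrophages and 90.7 CPM in monocytes. Members of the Ifi200, Ifit, Oas and Ifitm families resemble each other, and the files do not say how reads matching several copies were counted.

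**Figure D5:**
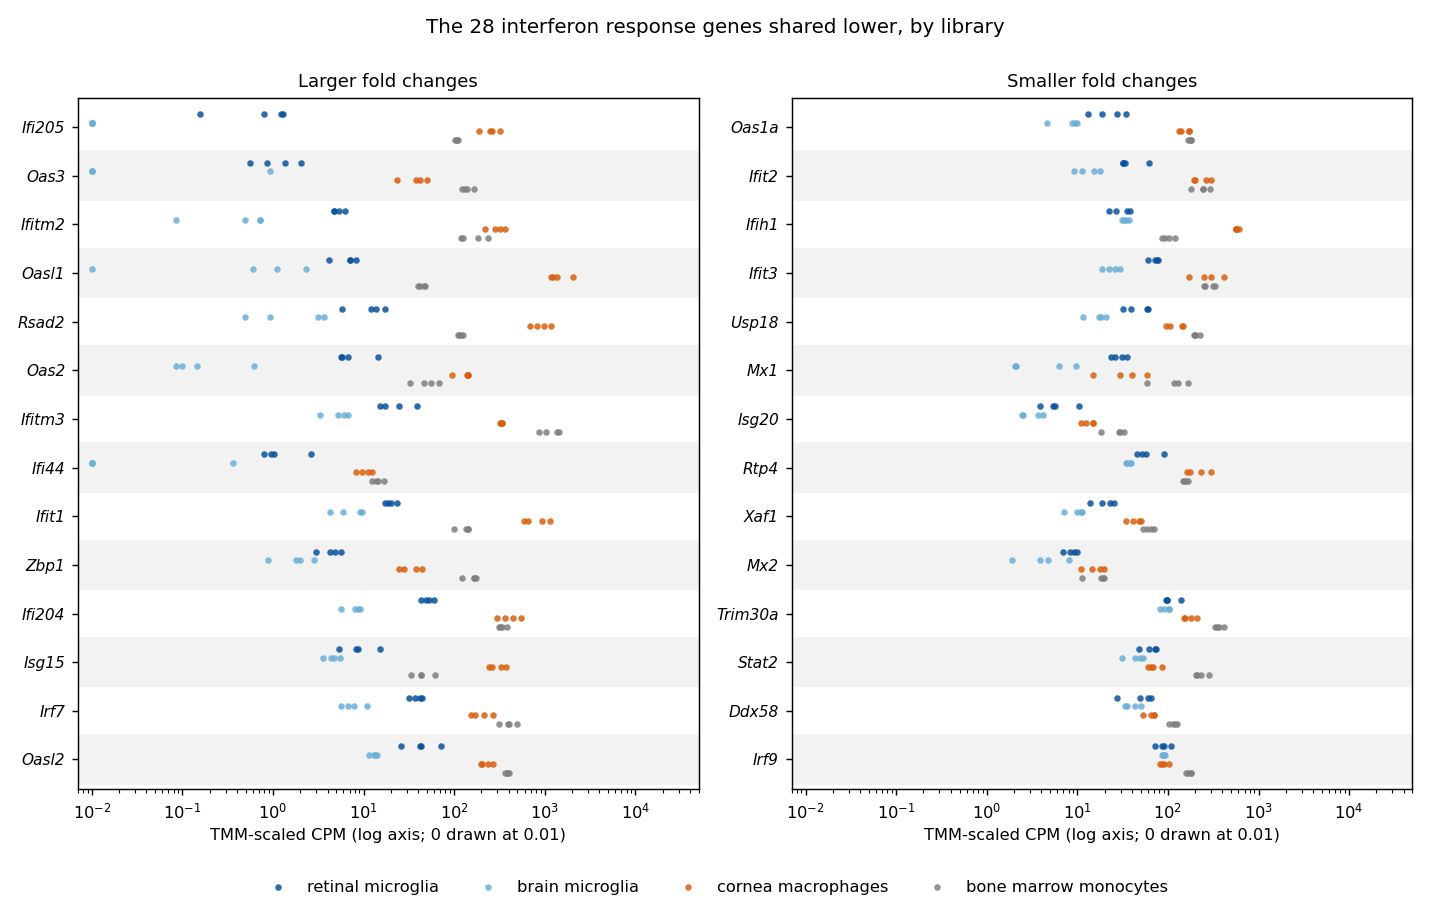
TMM-scaled CPM (x axis, log scale, 0 drawn at 0.01) of the 28 interferon response genes that were shared lower, ordered by log2 fold change from the most negative at the top left. Each point is a library, coloured by population. Ifi205 lies at or under 1.29 CPM in the 8 microglial libraries and at or above 102 CPM in the 8 others, whereas microglial and other points of Irf9 and Mx1 overlap, among others.

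Antigen presentation genes were lower in part. Of 19 measured class I genes, 6 were shared lower (31.6%, against 23.8% of all tested genes) and 1 higher. By total counts 4 were shared lower. H2-D1, a classical class I heavy chain, averaged 2297 ± 636 CPM in retinal microglia and 952 ± 80.5 CPM in brain microglia, against 5645 ± 464 CPM in cornea macrophages and 5103 ± 339 CPM in monocytes (log2 fold change -1.86, SE 0.11, adjusted p = 1.4e-10). Nlrc5, the transactivator of class I genes, averaged 9.75 ± 2.17 CPM in retinal microglia and 2.33 ± 0.639 CPM in brain microglia, against 51.5 ± 9.98 CPM in cornea macrophages and 39.3 ± 5.96 CPM in monocytes (log2 fold change -3.24, SE 0.17, adjusted p = 1.9e-11). Tap2, a peptide transporter subunit, was higher at a log2 fold change of 0.76. Of 15 measured class II genes, 7 were shared lower (46.7%) and 5 higher (33.3%, against 27.9% of all tested genes). Cd74, the invariant chain, averaged 149 ± 35.9 CPM in retinal microglia and 41.4 ± 9.89 CPM in brain microglia, against 18498 ± 3791 CPM in cornea macrophages and 577 ± 116 CPM in monocytes (log2 fold change -5.38, SE 0.17, adjusted p = 5.1e-14). H2-Aa averaged 26.2 ± 12.4 CPM in retinal microglia and 1.37 ± 1.22 CPM in brain microglia, against 2785 ± 442 CPM in cornea macrophages and 61.7 ± 20.8 CPM in monocytes (log2 fold change -6.10, SE 0.34, adjusted p = 4.9e-11). Cd40, a co-stimulatory receptor, averaged 1.23 ± 1.69 CPM in retinal microglia and 0.18 ± 0.215 CPM in brain microglia, against 508 ± 96.2 CPM in cornea macrophages and 38.3 ± 2.46 CPM in monocytes (log2 fold change -8.20, SE 0.51, adjusted p = 2.2e-10). The genes of the DO heterodimer, which restrains class II peptide loading, ran the other way. H2-Oa averaged 30.5 ± 7.39 CPM in retinal microglia and 31.5 ± 5.58 CPM in brain microglia, against 0.488 ± 0.56 CPM in cornea macrophages and 0.824 ± 0.317 CPM in monocytes (log2 fold change 5.67, SE 0.39, adjusted p = 8.6e-10). H2-Ob averaged 82.8 ± 14.7 CPM in retinal microglia and 58.4 ± 4.80 CPM in brain microglia, against 10.5 ± 3.70 CPM in cornea macrophages and 1.8 ± 0.95 CPM in monocytes (log2 fold change 4.02, SE 0.24, adjusted p = 1.5e-10). Class I heavy chains share long stretches of sequence, so single values for H2-D1 and its relatives are uncertain.

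C-type lectins and MS4A genes were largely lower in both microglia, and Fc and related receptors ran in both directions. Of 26 measured C-type lectins, 17 were shared lower, 12 strictly, and 3 were higher. Clec12a, an inhibitory receptor for uric acid crystals and dead cells, had 0.868, 2.10, 3.12 and 0.805 CPM in retinal microglia, and 0.171, 0, 0 and 0 CPM in brain microglia. Clec12a had 312, 324, 336 and 346 CPM in cornea macrophages, and 326, 289, 321 and 332 CPM in monocytes. Cornea macrophages and monocytes were at like levels. Clec4e, the receptor Mincle for glycolipids, averaged 2.31 and 0.0429 CPM in retinal and brain microglia, against 1648 CPM in cornea macrophages and 25.1 CPM in monocytes. Clec4d, its partner, averaged 0.427 and 0.0429 CPM in retinal and brain microglia, against 1123 CPM in cornea macrophages and 4.93 CPM in monocytes. Mrc2, an endocytic receptor for collagen, was higher and lay at 45.2 to 99.7 CPM (median 72.2) in the 8 microglial libraries, against 0 to 13.3 CPM (median 1.79) in the 8 cornea and marrow libraries. Of 9 measured MS4A genes, which encode membrane proteins with 4 spans, 7 were shared lower, 4 strictly, and none was higher. Ms4a4a averaged 2.68 ± 0.799 CPM in retinal microglia and 0.119 ± 0.148 CPM in brain microglia, against 339 ± 42.3 CPM in cornea macrophages and 222 ± 23.9 CPM in monocytes (log2 fold change -8.93, SE 0.23, adjusted p = 4.5e-15). Ms4a4c averaged 5.73 ± 1.93 CPM in retinal microglia and 2.74 ± 1.01 CPM in brain microglia, against 23 ± 15.6 CPM in cornea macrophages and 658 ± 51.8 CPM in monocytes (log2 fold change -4.96, SE 0.28, adjusted p = 6.8e-11). Of 22 measured Fc and related receptors, 10 were shared lower (45.5%) and 4 higher (18.2%), against 23.8% and 27.9% of all tested genes. Cd300ld averaged 1.84 ± 1.39 CPM in retinal microglia and 0.336 ± 0.339 CPM in brain microglia, against 486 ± 27.3 CPM in cornea macrophages and 48.7 ± 5.04 CPM in monocytes (log2 fold change -7.54, SE 0.37, adjusted p = 1.1e-11). Trem3 lay at 0 CPM in each of the 8 microglial libraries, against 0.794 to 30.2 CPM (median 9.93) in the 8 cornea and marrow libraries. Fcgr1, which encodes the CD64 used in the cornea gate, was higher in microglia at 353 ± 48.2 CPM in retinal microglia and 323 ± 37.7 CPM in brain microglia, against 71.3 ± 10.2 CPM in cornea macrophages and 129 ± 5.38 CPM in monocytes (log2 fold change 1.81, SE 0.10, adjusted p = 2.5e-11). Fcrl1 was also higher, at 31.2 and 85.4 CPM in retinal and brain microglia, against 13.9 CPM in cornea macrophages and 10.9 CPM in monocytes.

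The sort markers gave mixed values. Of 7 measured, 3 were shared higher (Csf1r, Fcgr1 and Itgam) and 2 lower (Ptprc and Ly6c1). Itgam, which encodes CD11b, averaged 870.1 ± 262 CPM in retinal microglia and 1393 ± 181 CPM in brain microglia, against 645 ± 94.0 CPM in cornea macrophages and 863 ± 41.9 CPM in monocytes (log2 fold change 0.56, SE 0.13, adjusted p = 8.0e-04), and its microglial and other libraries overlapped. Its call was lost with the lane as a term, on lane 2 alone, without the 3 libraries of unlettered title, and without retina replicate 1, monocyte replicate 2 or monocyte replicate 4. Ptprc, which encodes CD45, averaged 559.7 ± 85.5 CPM in retinal microglia and 396 ± 29.9 CPM in brain microglia, against 695 ± 75.5 CPM in cornea macrophages and 1492 ± 232 CPM in monocytes (log2 fold change -1.11, SE 0.10, adjusted p = 2.6e-08), and it was no longer shared when libraries were scaled by total counts. Adgre1, which encodes F4/80, was not shared and averaged 506 and 948 CPM in retinal and brain microglia, against 2515 CPM in cornea macrophages and 432 CPM in monocytes. Ly6c1 lost its call on lane 3 alone and without cornea replicate 2.

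Of 20 measured chemokine and chemoattractant receptors, 6 were shared lower and 6 higher (30% each). These shares were near the 23.8% and 27.9% of all tested genes. Ccr2, which takes monocytes out of the marrow, had 0.631, 0.977, 0.862 and 0.403 CPM in retinal microglia, and 4.46, 3.96, 5.26 and 7.11 CPM in brain microglia. Ccr2 had 45.4, 66.3, 51.4 and 55.3 CPM in cornea macrophages, and 2204, 2402, 2950.4 and 3197 CPM in monocytes (log2 fold change -7.62, SE 0.19, adjusted p = 2.6e-15). Monocytes stood above cornea macrophages, and both stood above each microglial library without overlap. Cxcr4, which retains cells in the marrow, averaged 0.672 ± 0.183 CPM in retinal microglia and 0.0363 ± 0.0725 CPM in brain microglia, against 60.6 ± 10.5 CPM in cornea macrophages and 21.8 ± 11.3 CPM in monocytes. The formyl peptide receptors Fpr1 and Fpr2 were lower, Fpr2 at 0 to 0.158 CPM (median 0) in the 8 microglial libraries, against 5.18 to 17.8 CPM (median 13.4) in the 8 cornea and marrow libraries. Among the higher receptors were Cx3cr1, Ccr6, Ackr3, Cmklr1 and Gpr183.

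Of 32 measured chemokines and inflammatory cytokines, 8 were shared lower (25%, near the 23.8% of all tested genes) and none was higher, with 24 not shared (5 shared lower at a minimum count of 50). Il1rn, the interleukin-1 receptor antagonist, averaged 1.88 ± 1.11 CPM in retinal microglia and 0.928 ± 0.488 CPM in brain microglia, against 6579 ± 419.6 CPM in cornea macrophages and 25.1 ± 6.22 CPM in monocytes (log2 fold change -8.28, SE 0.25, adjusted p = 2.7e-14), so its level in monocytes was far below that in the cornea. Cxcl2, a chemoattractant for neutrophils, averaged 0.518 and 0.714 CPM in retinal and brain microglia, against 17524 CPM in cornea macrophages and 1.10 CPM in monocytes and was no longer shared on lane 3 alone or without monocyte replicate 1. Of 30 measured interleukin-1, inflammasome and NF-kappaB genes, 15 were shared lower and 1 was higher. Nlrc4, an inflammasome sensor for bacterial proteins, lay at 0 to 1.58 CPM (median 0.0429) in the 8 microglial libraries, against 13.2 to 38.1 CPM (median 21.8) in the 8 cornea and marrow libraries. Tnip3, an inhibitor of NF-kappaB, averaged 0.388 ± 0.603 CPM in retinal microglia and 0.29 ± 0.423 CPM in brain microglia, against 782 ± 228 CPM in cornea macrophages and 7.46 ± 2.37 CPM in monocytes (log2 fold change -7.78, SE 0.46, adjusted p = 1.0e-10). Aim2, a DNA sensor, was the higher member, at a log2 fold change of 0.85, and lost its call without brain replicate 2.

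Of 34 measured matrix, protease and coagulation genes, 14 were shared lower, 10 strictly, 4 were higher (7 by total counts) and 16 were not shared. Fn1, which encodes fibronectin, lay at 0 to 2.09 CPM (median 0.308) in the 8 microglial libraries, against 60.1 to 7892 CPM (median 3183) in the 8 cornea and marrow libraries, with cornea macrophages far below monocytes (0.984 and 0.302 CPM in retinal and brain microglia, against 79.7 CPM in cornea macrophages and 6817 CPM in monocytes). F13a1, the A chain of coagulation factor XIII, averaged 4.01 and 1.74 CPM in retinal and brain microglia, against 771 CPM in cornea macrophages and 6386 CPM in monocytes. F10, coagulation factor X, lay at 0 to 0.0488 CPM (median 0) in the 8 microglial libraries, against 1.23 to 211 CPM (median 89.8) in the 8 cornea and marrow libraries. Serpine2, an inhibitor of thrombin, was higher at 1005 ± 140.5 CPM in retinal microglia and 1179 ± 97.1 CPM in brain microglia, against 3.59 ± 1.50 CPM in cornea macrophages and 1.29 ± 1.32 CPM in monocytes (log2 fold change 8.89, SE 0.35, adjusted p = 6.4e-13). Sparc, a collagen-binding matrix protein, was higher at 3458 ± 843 CPM in retinal microglia and 4896 ± 451 CPM in brain microglia, against 418 ± 117 CPM in cornea macrophages and 0.621 ± 0.321 CPM in monocytes (log2 fold change 7.98, SE 0.24, adjusted p = 2.0e-14). Of 20 measured genes of classical monocytes, 14 were shared lower, 9 strictly, and of 20 measured genes of border and tissue macrophages, 12 were shared lower, 9 strictly. None in either list was higher. Cybb, the catalytic subunit of the phagocyte NADPH oxidase, averaged 42.8 ± 9.30 CPM in retinal microglia and 4.30 ± 1.51 CPM in brain microglia, against 2326 ± 63.0 CPM in cornea macrophages and 3383 ± 536 CPM in monocytes (log2 fold change -7.70, SE 0.19, adjusted p = 2.5e-15). Clec10a, a galactose-binding lectin, lay at 0 to 0.305 CPM (median 0) in the 8 microglial libraries, against 14.9 to 33.1 CPM (median 27.7) in the 8 cornea and marrow libraries. Cd163, the haemoglobin scavenger receptor, at 0 to 3.55 CPM (median 0) in the 8 microglial libraries, against 1.56 to 217 CPM (median 55.7) in the 8 cornea and marrow libraries.

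Transcription factors known from monocytes and other macrophages were lower in both microglia. Of 29 measured, 19 were shared lower, 14 strictly, and 3 were higher. Pparg, a nuclear receptor of lipid metabolism, averaged 0 and 0.215 CPM in retinal and brain microglia, against 178 CPM in cornea macrophages and 10.7 CPM in monocytes. Nr4a1, an orphan nuclear receptor of patrolling monocytes, averaged 2.74 ± 0.358 CPM in retinal microglia and 2.12 ± 0.954 CPM in brain microglia, against 509 ± 84.4 CPM in cornea macrophages and 60.7 ± 27.3 CPM in monocytes (log2 fold change -6.17, SE 0.25, adjusted p = 8.1e-13). Spic, a relative of PU.1 in iron-recycling macrophages, averaged 0.229 and 0.0214 CPM in retinal and brain microglia, against 343 CPM in cornea macrophages and 1.83 CPM in monocytes. Ahr, the aryl hydrocarbon receptor, averaged 4.65 ± 6.71 CPM in retinal microglia and 0.69 ± 0.805 CPM in brain microglia, against 136 ± 14.6 CPM in cornea macrophages and 37.5 ± 14.2 CPM in monocytes (log2 fold change -5.28, SE 0.70, adjusted p = 3.6e-06). Klf4, Irf4, Irf7, Nfil3, Runx2, Runx3, Cebpb, Id2, Nfkb2 and Zeb2 were also strictly lower. Maf was strictly higher at 411 ± 144 CPM in retinal microglia and 459 ± 92.9 CPM in brain microglia, against 76.7 ± 28.1 CPM in cornea macrophages and 11.6 ± 2.79 CPM in monocytes (log2 fold change 3.86, SE 0.21, adjusted p = 4.5e-11), and Batf3 and Cebpa were shared higher.

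Of 31 measured immediate-early and dissociation genes, 12 were shared lower, 3 strictly, and none was higher. Fosl2, an AP-1 subunit, averaged 10.9 ± 4.39 CPM in retinal microglia and 8.53 ± 0.924 CPM in brain microglia, against 210.2 ± 26.7 CPM in cornea macrophages and 104 ± 8.27 CPM in monocytes (log2 fold change -3.93, SE 0.17, adjusted p = 1.7e-12). Gadd45b, a stress-induced gene, averaged 1.8 ± 0.622 CPM in retinal microglia and 0.601 ± 0.344 CPM in brain microglia, against 897 ± 265 CPM in cornea macrophages and 15.2 ± 6.89 CPM in monocytes (log2 fold change -6.79, SE 0.31, adjusted p = 3.8e-12). The summed level of the list was 2403 to 3906 CPM in retinal microglia and 2463 to 2822 CPM in brain microglia, against 38541 to 51389 CPM in cornea macrophages and 1873 to 3399 CPM in monocytes. The cornea libraries stood far above all others, and the marrow libraries did not differ from microglia in this sum beyond their ranges. Digestion at 37 °C and the cornea population cannot be told apart.

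Of 30 measured cell cycle genes, 15 were shared lower, 6 strictly, and none was higher. By total counts 10 were shared lower. Cornea macrophages lay below monocytes in 28 members and above in 1 at an adjusted p under 0.05. Of all tested genes, 63.3% differed between these populations in either direction. Mki67, a marker of cycling cells, averaged 32.8 ± 17.9 CPM in retinal microglia and 3.01 ± 1.50 CPM in brain microglia, against 153 ± 57.4 CPM in cornea macrophages and 429 ± 57.0 CPM in monocytes (log2 fold change -4.68, SE 0.31, adjusted p = 4.6e-10). Top2a, topoisomerase II alpha, averaged 22.6 ± 4.23 CPM in retinal microglia and 1.15 ± 1.77 CPM in brain microglia, against 50.8 ± 15.8 CPM in cornea macrophages and 406 ± 61.2 CPM in monocytes (log2 fold change -4.80, SE 0.37, adjusted p = 4.1e-09). For both genes monocytes held the highest levels and brain microglia the lowest. Within microglia, 17 of the 30 members were higher in the retina than in the brain at an adjusted p under 0.05, against 6.95% of all tested genes, and 1 was lower. Here too the retinal and brain libraries lay on different lanes. Of 24 measured glycolysis genes, 9 were shared lower (37.5%) and 5 higher (20.8%), against 23.8% and 27.9% of all tested genes. By total counts 6 were lower and 5 higher. Pkm, which encodes pyruvate kinase M, averaged 198 ± 29.7 CPM in retinal microglia and 140.4 ± 15.3 CPM in brain microglia, against 586 ± 36.1 CPM in cornea macrophages and 576 ± 88.8 CPM in monocytes (log2 fold change -1.80, SE 0.10, adjusted p = 3.7e-11). Pfkp, the platelet form of phosphofructokinase, averaged 19.8 ± 9.75 CPM in retinal microglia and 1.68 ± 0.769 CPM in brain microglia, against 232 ± 34.6 CPM in cornea macrophages and 179.9 ± 8.73 CPM in monocytes (log2 fold change -5.14, SE 0.24, adjusted p = 6.1e-12). Pfkl, the liver form, was higher at 123 ± 6.51 CPM in retinal microglia and 116 ± 12.8 CPM in brain microglia, against 23.5 ± 1.93 CPM in cornea macrophages and 55.5 ± 7.83 CPM in monocytes (log2 fold change 1.72, SE 0.09, adjusted p = 2.8e-11). Of 25 measured sterol and fatty acid synthesis genes, 13 were shared lower and 1 was higher, which became 7 and 4 by total counts. Elovl6, a fatty acid elongase, averaged 1.29 ± 1.09 CPM in retinal microglia and 1.53 ± 1.32 CPM in brain microglia, against 8.04 ± 3.49 CPM in cornea macrophages and 11.6 ± 3.93 CPM in monocytes (log2 fold change -2.75, SE 0.53, adjusted p = 1.9e-04). Dhcr7, the last enzyme of cholesterol synthesis, was the higher member at a log2 fold change of 1.30.

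Summed levels of markers of other cells differed between populations. The rod photoreceptor markers summed to 802 to 7629 CPM in retinal microglia and 0.871 to 2.06 CPM in brain microglia, against 1.53 to 4.58 CPM in cornea macrophages and 0.813 to 2.10 CPM in monocytes. Of 10 markers, 1 (Pde6b) was shared higher. Pde6b lost its call under 7 of 29 alternatives, among them without brain replicate 1 or 3 and without cornea replicate 2 or 3. Astrocyte and Müller glia markers summed to 201 to 260.1 CPM in retinal and 368 to 443 CPM in brain microglia, against 46.4 to 60.9 CPM in cornea macrophages and 20.2 to 31.7 CPM in monocytes. Of 6 measured, 4 were shared higher. Slc1a3, a glutamate transporter, averaged 86.5 and 262 CPM in retinal and brain microglia, against 1.17 CPM in cornea macrophages and 0.237 CPM in monocytes, while Gfap was below the count minimum. Oligodendrocyte markers summed to 149 to 175 CPM in retinal and 163 to 169 CPM in brain microglia, against 47.4 to 60.8 CPM in cornea macrophages and 383 to 399 CPM in monocytes. Of 4 measured, 2 were shared higher. Corneal stroma markers reached 1745 to 2980 CPM in cornea macrophages and at most 1.19 CPM in each other library, and 2 of 8 were shared lower (Lum and Col5a1). That count was 1 without monocyte replicate 4, where Lum lost its call. It was 3 without retina replicate 1 or monocyte replicate 1. Corneal epithelium markers summed to 0.977 to 2.94 CPM in retinal and 0.429 to 1.89 CPM in brain microglia, against 93.7 to 767 CPM in cornea macrophages and 0.0452 to 0.299 CPM in monocytes. Of 5 measured, only Pax6 was shared higher. None was without brain replicate 4 or cornea replicate 2 or 3. T and NK cell markers summed to 0 to 2.26 CPM in retinal and 0 to 0.171 CPM in brain microglia, against 34.7 to 64.1 CPM in cornea macrophages and 8.13 to 19.8 CPM in monocytes. Neither of the 2 measured was shared. B cell markers summed to 42.8 to 79.6 CPM in retinal and 51.0 to 77.5 CPM in brain microglia, against 2.30 to 3.06 CPM in cornea macrophages and 21.9 to 28.7 CPM in monocytes. The 1 measured, Cd79b, was shared higher. Granulocyte markers reached 719 to 4401 CPM and erythroid markers 372 to 2487 CPM in monocytes, and 3 of 9 and 1 of 6 measured were shared lower. Without brain replicate 2, 6 of the granulocyte markers were shared lower. Dendritic cell markers summed to 12.7 to 21.4 CPM in retinal and 15.6 to 21.8 CPM in brain microglia, against 82.6 to 176 CPM in cornea macrophages and 141 to 192 CPM in monocytes. Of 8 measured, 3 were shared lower and 1 higher. The part of these cells in the shared genes was not tested.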

How the data were processed

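The authors deposited 1 table of read counts per gene for all 16 libraries, with whole numbers and no normalization, beside a gene length in bases that was not used for levels here. Per the submitters' processing notes, CASAVA 1.8.2, Subread, featureCounts, limma and build GRCm38.p4 were used (order and roles not given), and per the file headers only read 1 was counted. Not given in the sources used here were the strand setting and how reads matching several places were counted. Of 45664 entries, 16739 had no count and 27 had symbols turned into dates.

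Counts were tested as deposited with edgeR 4.0.16 in R 4.3.3. Genes passed filterByExpr at a minimum count of 10 over the 4 populations, which left 15754. TMM factors and a quasi-likelihood fit with 1 term per population were used, and p-values were adjusted over all tested genes by the Benjamini-Hochberg method. The SE of a log2 fold change is its size divided by the square root of the F statistic. Where a population held 3 or fewer counts of a gene no fitted fold change of the average is given. Such folds are lower bounds against 3 counts over the population, or ratios with an exact 95% interval for 1 to 3 counts, and both cover counting error only. The scripts were tested on simulated data with known changes.

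The members, the gene lists and the rule for named genes were chosen with earlier results of these data known. The rule named, in each direction, the 12 strictly shared genes with the largest change in the weakest pair and the 8 with the smallest difference within either side, each without overlap between the 8 microglial and 8 other libraries and with at least 20 CPM in both populations of the higher side. It also named up to 4 shared members per list by size, up to 2 that ran against the list, and the sort markers. Some genes that it named are not reported here. Replicate numbers follow the order of deposition and pair nothing. Pairs of replicates differed by more than sampling noise (chi-square per degree of freedom 11.3 to 95.5 over 24 pairs), so each library was counted once. Gene positions are those of GENCODE on GRCm38, which matched 14819 tested genes by symbol (94.1%), and promoters those of RefSeq, which matched 9631. Alternatives were other scalings, DESeq2 1.42.0, other filters, the lane, left-out libraries, a block by title suffix, a minimum change and a fit of 2 groups.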

Additional observations from a re-analysis of the deposited data

Results flagged for a closer look

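Across 145 groups of 4 libraries that were looked at, 10 held a library that stood apart from the other 3, where chance flags about 1 in 20 groups. The rule was Dixon's at the 95% level. Among marker sums, granulocyte markers reached 18.4 CPM in brain replicate 2 against a median of 0.0725 CPM in the other 3 brain libraries, and erythroid markers reached 47.7 CPM in brain replicate 3 against 0.508 CPM. Endothelial and mural markers reached 58.0 CPM in brain replicate 3 against 47.3 CPM, and astrocyte and Müller glia markers reached 31.7 CPM in monocyte replicate 1 against 20.8 CPM. Among named genes, Adamts16 had 39.1 CPM in brain replicate 1 against 29.4 CPM in the other 3, and Slc10a3 had 103 CPM in retina replicate 3 against 53.1 CPM. Dhrs7b had 47.7 CPM in brain replicate 1 against 50.0 CPM. Vav3 had 189.2 CPM in cornea replicate 4 against 301 CPM, and Atp8b4 had 79.9 CPM in cornea replicate 4 against 45.9 CPM. Nabp1 had 82.8 CPM in monocyte replicate 3 against 61.0 CPM.

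Within the sides, retinal and brain microglia differed in 27 strictly shared higher genes with more in the retina and in 75 with more in the brain (edgeR's quasi-likelihood test of the difference itself, adjusted p under 0.05). Cornea macrophages and monocytes differed in 357 strictly shared lower genes with more in the cornea and in 305 with more in monocytes by the same test. Over all tested genes, 10.5% differed between retina and brain and 63.3% between cornea and marrow, in either direction.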

How the results depend on the processing

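The counts of shared genes moved by over 1.5 times under 2 of the alternatives: scaling by total counts left 2338 shared lower genes in place of 3747, and a minimum change of 2-fold left 2550 higher and 1957 lower genes in place of 4402 and 3747. Total counts gave 5582 shared higher genes. Leaving out 1 library at a time gave 4350 to 4623 shared higher, 3641 to 3832 shared lower, 1402 to 1540 strictly shared higher and 1053 to 1139 strictly shared lower genes, and 1136 of the 1493 higher (76.1%) and 900 of the 1106 lower strict genes (81.4%) met the strict rule in each of these 16 fits. DESeq2 gave 4507 and 3722 shared and 1564 and 1099 strictly shared genes, and a lane term gave 4146 and 3619 shared and 1064 and 1001 strictly shared genes. Leaving out the 3 libraries that lack the letter b gave 4520 and 3686 shared genes. Title suffixes shared by 2 brain and 2 marrow libraries gave no sign of pairing (correlations of deviations of -0.0096 and 0.033 for like suffixes), and the replicate block by suffix gave 4341 and 3706 shared and 1384 and 1053 strictly shared genes. Of 5867 values of 203 named genes over 29 alternatives, 5781 kept their direction and call, 82 lost the call, 4 gained it and 0 reversed. Most named genes were chosen because they were called shared in the main fit, and the alternatives used the same libraries. The choice therefore favoured a high share of kept calls, which is not a test of them. Genes of low count limit the lower side: where both microglia held almost none, the fold is a bound set by depth.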

Other observations

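Zinc finger genes with a Zfp symbol, chosen after their values were seen, leaned to the microglial side. Of 325 tested, 201 were shared higher, 73 of them strictly, and 14 were shared lower, 1 of them strictly, with a median log2 fold change of 1.17 against 0.08 over all tested genes. The counts were 203 and 12 with RLE factors, 201 and 14 with TMM factors taken without markers of other cells, and 236 and 8 by total counts. Ribosomal protein genes, chosen likewise, leaned the other way with TMM. Of 85 tested, 3 were shared higher and 50 lower, with a median log2 fold change of -0.72, and 1 was strictly lower. By total counts 4 were shared higher and 12 lower, and the median was -0.32 against 0.48 over all tested genes.

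Classes of genes in the annotation also differed in their shares. Among 1419 tested processed pseudogenes, 29 (2.04%) were strictly higher and 191 (13.5%) strictly lower in both microglia. Among 284 tested long intergenic non-coding RNAs, 37 (13%) were strictly higher and 10 (3.52%) strictly lower, and among 12057 protein-coding genes 1190 (9.87%) and 808 (6.70%). Reads on a processed pseudogene can come from its parent gene.

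Runs of neighbours were sought among tested protein-coding genes with 1 GENCODE entry, and any other tested entries between them were passed over. Strictly shared higher genes formed a run of 24 such genes on chromosome 14. It lay between positions 3332627 and 6684170 of GRCm38, and nearly all its members had Gm symbols. Their mean levels were 0.48 to 17.9 CPM in retinal and 0.62 to 17.1 CPM in brain microglia, against 0 to 0.66 CPM in cornea macrophages and 0 to 0.0113 CPM in monocytes. Between 0% and 98.4% (median 89.7%) of the 31-letter words in each transcript occurred in another member of the run, so counts of the entries that share words may have been split or shared. The next longest run, 6 zinc finger genes (Zfp354c, Zfp879, Zfp454, Zfp2, Zfp354b and Zfp354a), lay on chromosome 11 between positions 50811086 and 51072799.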
